A study of Rattus norvegicus with 108 samples.

Results

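The 8 genes described here encode proteins of the lysosome: the proteases Ctsb, Ctsd, Ctss and Lgmn, the lipid-handling proteins Psap, Gm2a and Npc2, and the membrane protein Lamp1. They were chosen by symbol from the 19127 genes of single-cell count tables of the dorsal (dorDG) and ventral (venDG) dentate gyrus of male rats, and all 8 were present in both tables. The animals, from Charles River and 2 months old, received fluoxetine, a selective serotonin reuptake inhibitor, at 18 mg/kg body weight (FT) or water (Sham) for 6 weeks. The 4 groups were dorDG FT with 4 replicates and dorDG Sham, venDG FT and venDG Sham with 5 replicates each, and each replicate was tissue pooled from several animals. The tables held 3347 usable cells, 1289 from dorDG and 2058 from venDG. No transgene or disease model was involved, so the groups differed by region and by drug.

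The lysosome is the acidic compartment in which cells break down proteins, lipids and glycans taken up from outside or delivered by autophagy. Its cathepsins are made as inactive precursors and become active at low pH, and its lipid hydrolases need small carrier proteins that lift single lipids out of membranes. Many lysosomal genes are controlled by TFEB and related factors, which bind a palindromic promoter motif that contains CACGTG. Fluoxetine is a cationic amphiphilic drug, a class of weak bases known to gather in lysosomes. Microglia, the resident phagocytes of the brain, carry a large lysosomal compartment.

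The motif was looked for because it is the known link between these genes and a shared regulator. RefSeq promoter windows of the GRCr8 rat assembly, from 250 bases before to 50 bases after the gene start, were available for 6 of the 8 genes, all but Ctsb and Psap. The 8-letter form TCACGTGA was found in 2 of the 6, Ctsd and Lamp1, compared with 0.777% of all 33469 promoters, 1.47% of the 3338 promoters of genes tested in dorDG and 6 of 66 promoters (9.09%) of other lysosomal genes. The core CACGTG was in the same 2 promoters, in 6.42% of all promoters and in 7.91% of those of genes tested in dorDG. It was in 13 of the 66 promoters of other lysosomal genes (19.7%). Both forms read the same on the 2 strands. The windows below are written 5′ to 3′ on the strand of the gene, with the 8 letters in capitals. The Ctsd window lies on the minus strand at chr1:206968817-206968840, with the motif from base −11 to base −4 before the gene start. The Lamp1 windows lie on the minus strand at chr16:83075114-83075137 and chr16:83075087-83075110, with the motif at −66 to −59 and at −39 to −32.
Ctsd: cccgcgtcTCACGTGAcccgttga
Lamp1, upstream: ccctcggcTCACGTGAccggcggg
Lamp1, downstream: ggcactgtTCACGTGAcaggcgct
Motifs that lacked the first or last of the 8 letters were found once more in Ctsd, at −157 to −151, and 3 more times in Lamp1, between −184 and −144. No match was found in the windows of Ctss, Lgmn, Gm2a and Npc2, which says only that these letters were not in those 300 bases.

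The data were counts of unique molecular identifiers (UMIs), which tag single captured RNA molecules at their 3′ end, and levels are given as UMIs per 10000 UMIs of the cells summed. Totals per replicate ranged from 220162 to 1523537 UMIs. The labels describe nuclei, whereas the methods of the study describe whole-cell and nucleus suspensions, and neither source says which 10x reaction held which. In 1226 of the 3347 cells (36.6%) fewer than 2% of the UMIs came from ribosomal protein genes. Such low-ribosomal cells were 14.5% to 42.1% of the dorDG FT replicates and 31.9% to 72% of the dorDG Sham replicates, and 16.9% to 50.3% and 18.9% to 61.9% in venDG FT and Sham. For replicates 1 and 2 of every group, 8 replicates in all, 2 reactions were present, and the low-ribosomal cells lay almost wholly in the second of them (78.3% to 96.0% of its cells, against 4.08% to 15.5% in the first). Barcodes shared by 2 reactions numbered 9. The libraries thus stood apart by kind of cell, and the comparisons over all cells are given below with and without these cells.

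Cell types in dorDG are those of the deposited annotation (12 types), and in venDG they were rebuilt by clustering and named from marker genes. Markers matched the labels of microglia, oligodendrocytes, their precursors, astrocytes and endothelial cells. The labels of some other dorDG types went against their markers. The type labelled Mossy had 7 of 7 mural markers at least 2-fold above the other cells (27.3 against 0.92 UMIs per 10000 in sum). It also had 5 of 6 endothelial markers (36.7 against 9.67) and 0 of 4 mossy cell markers. The type labelled Granule had 0 of 6 granule cell markers, 5 of 7 inhibitory neuron markers (0.974 against 0.386) and 2 of 2 blood markers (388.5 against 3.06). The type labelled InhibNeuron had 5 of 6 granule cell markers (17.1 against 4.91) and 1 of 7 inhibitory neuron markers. The type labelled BergGlia, with 43 cells, had 6 of 6 astrocyte markers (98.9 against 10.5), as AstroSub1 did. These names are used below only as labels.

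Among the proteases, Ctss was almost wholly a transcript of microglia. Ctss encodes cathepsin S, a cysteine protease used by phagocytes in antigen processing. Its level was 93.6 ± 15 UMIs per 10000 in Microglia1 and 94.5 ± 26 in Microglia2 (SD, n = 9 replicates each), and the next type, BergGlia, had 3.20 ± 1.54 (SD, n = 4). The lowest microglial replicate, at 56.6, stood above the highest BergGlia replicate, at 4.95, whereas none of the 10 other types was separated from its neighbour in the order. Lgmn, which encodes the asparaginyl endopeptidase legumain, had 13.4 ± 5.25 in Microglia2, 9.76 ± 1.91 in Microglia1 and 1.41 ± 0.52 in Oligodend1 (SD, n = 9 each). Microglia1 and Oligodend1 did not overlap for Lgmn. Ctsb, the cysteine protease cathepsin B, had 16.0 ± 5.52 in Microglia2 and 15.3 ± 2.94 in Microglia1, followed by 3.47 ± 1.05 in AstroSub1 (SD, n = 8). Microglia1 and AstroSub1 did not overlap for Ctsb, and Microglia2 overlapped AstroSub1 through a single low replicate at 4.72. Ctsd, the aspartic protease cathepsin D, was also highest in microglia, at 10.3 ± 5.30 and 9.38 ± 3.38, but overlapped AstroSub1 at 3.51 ± 1.78. Each protease was thus highest in both microglial types, with the widest gap for Ctss.

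The lipid-handling genes were split. Npc2, which encodes a soluble carrier that passes cholesterol from the lysosome lumen to the membrane protein NPC1, had 39.6 ± 6.69 in Microglia1 and 32.8 ± 13.5 in Microglia2, followed by 3.37 ± 2.81 in BergGlia, without overlap. Psap, the precursor of the saposins that present sphingolipids to their hydrolases, was spread over glia, with 15 ± 5.23 in Microglia2, 13.6 ± 6.67 in AstroSub1, 13.2 ± 3.27 in Microglia1 and 11.1 ± 8.53 in BergGlia, all overlapping. Gm2a, the activator protein for degradation of the ganglioside GM2, was low everywhere, with its highest level of 1.14 ± 0.42 in Oligodend1 (n = 9) and its lowest of 0.14 ± 0.19 in the type labelled Granule (n = 9). Lamp1, a heavily glycosylated protein of the lysosomal membrane, had 3.54 ± 3.14 in BergGlia, 2.73 ± 1.35 in AstroSub1, 2.33 ± 0.86 in Oligodend1 and 1.94 ± 0.19 in Microglia1. Its 4 BergGlia replicates ranged from 0 to 6.78. For Psap, Gm2a and Lamp1 no leading type stood apart from the next in the order. The share of each gene's UMIs that lay in microglial cells, as a mean over the 9 dorDG replicates, was 89.5% for Ctss, 80.0% for Npc2, 71.2% for Lgmn, 58.7% for Ctsb, 55.5% for Ctsd, 33.8% for Psap, 22.1% for Lamp1 and 20.1% for Gm2a, while microglial cells held 16.1% of all UMIs.

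**Figure D1:**
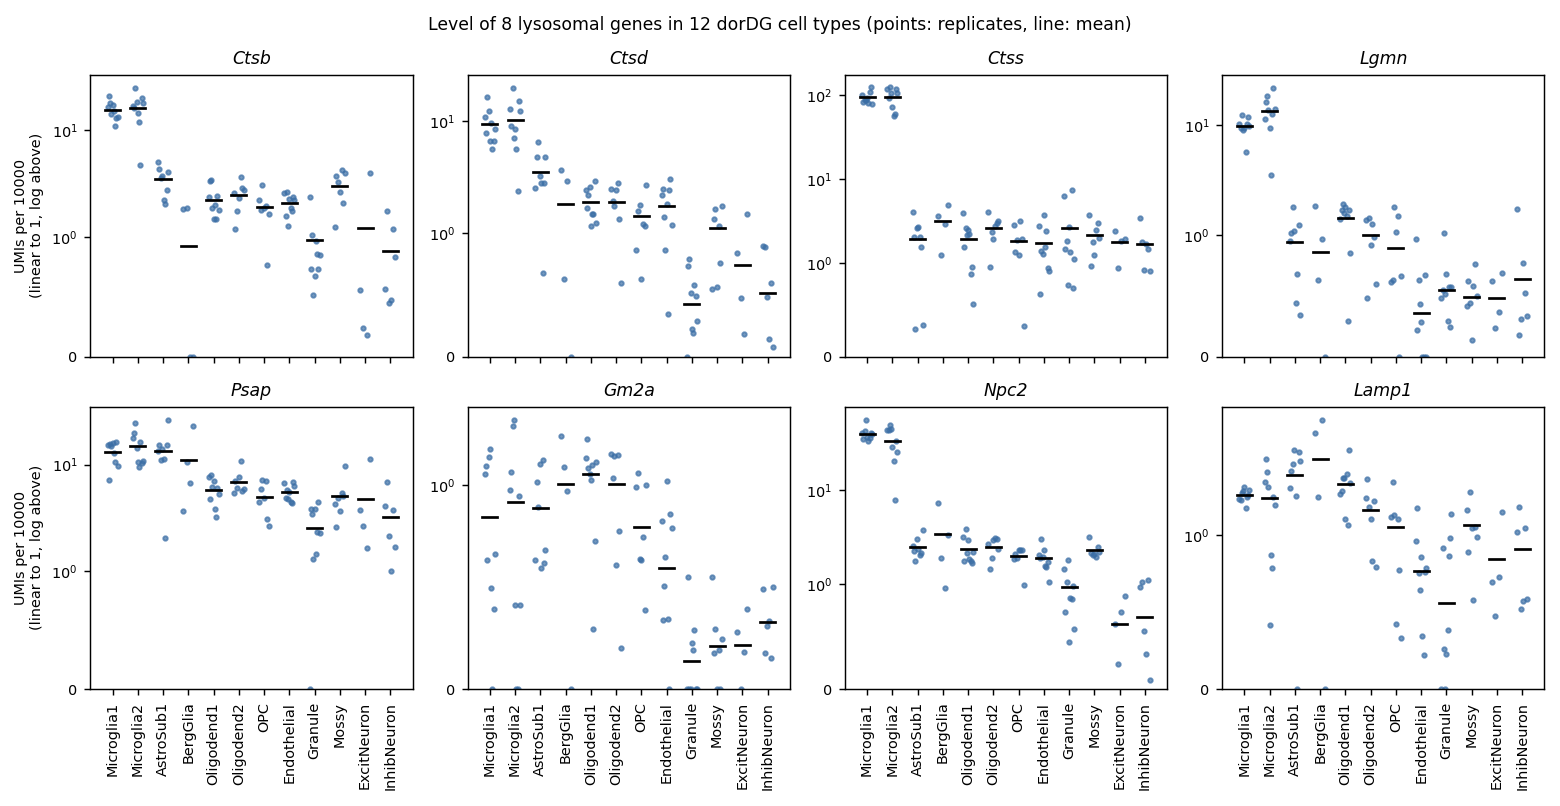
Level of each gene (vertical axis, UMIs per 10000, linear up to 1 and logarithmic above) in the 12 dorDG types as labelled in the deposited annotation (horizontal axis), with a point for each replicate that had at least 5 cells of the type and a line at the mean. Ctss, Npc2, Lgmn, Ctsb and Ctsd have their highest means in both microglial types, whereas Psap, Gm2a and Lamp1 are spread over astrocytes, oligodendrocytes and microglia.

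The same division was seen in venDG. Microglia-like cells had 110.6 ± 19.4 Ctss, 42.3 ± 13.6 Npc2, 15.1 ± 4.27 Ctsb, 11.5 ± 2.03 Lgmn and 11.5 ± 3.87 Ctsd UMIs per 10000 (SD, n = 10), and all but Ctsd stood apart from the next type. Astrocyte-like cells had the highest Psap (17.0 ± 5.40), Lamp1 (3.30 ± 1.81) and Gm2a (1.06 ± 0.53; SD, n = 9 each), each overlapping the next type. The microglial shares of UMIs, over the pooled venDG cells, ran from 93.0% for Ctss to 27.7% for Gm2a, against 19.9% of all UMIs.

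Ctss was found at a low level outside microglia. In dorDG 95.7% of microglial cells and 46.0% of other cells had at least 1 Ctss UMI, at medians of 4460 and 3844 UMIs per cell. The level over pooled cells lay between 1.58 in the type labelled InhibNeuron and 2.54 in Oligodend2 for the other dorDG types, between 1.55 and 2.16 for the other named venDG types, and at 3.53 in the 380 unnamed venDG cells. The 3 C1q genes, which microglia make, moved with it: there were 1.20 Ctss UMIs per C1q UMI in dorDG microglial cells and 1.01 in all other dorDG cells, and 1.26 and 0.99 in venDG. By type the ratio outside microglia ran from 0.79 in the type labelled Mossy to 2.4 in BergGlia. The BergGlia ratio rested on 12 Ctss and 5 C1q UMIs, and the next highest was 1.265 in venDG Mural-like cells. The unnamed venDG cells included a cluster of 12 cells that tied at 5 markers between types, with Ms4a7, Clec10a and Pf4 among its leading genes. Pf4 was on the list of macrophage markers, and what part of the 3.53 came from these cells was not tested. The low levels of the other types are not read as expression, and whether they came from free RNA was not tested.

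Across the 12 dorDG types, the pattern of Ctss was most like that of C1qa (Pearson r = 0.99), Lyc2.1 (0.99) and Aif1 (0.98), among 4246 genes compared on log-scaled levels. Npc2 was most like Tnf (0.99), Ccl4 (0.97) and Rnaset2 (0.97). Ctsb was most like Ctsz (0.96), Nfkbiz (0.95) and Fcer1g (0.95), and Lgmn was most like Dmtf1 (0.97), Ctss (0.95) and Lyc2.1 (0.95). Ctsd was most like Npc2 (0.94), Lamp2 (0.93) and Rnaset2 (0.92), and Psap was most like Ctsd (0.91), Epb41l2 (0.87) and Ctsa (0.87). Gm2a was most like Tsg101 (0.88), Cd81 (0.87) and Bet1 (0.87), and Lamp1 was most like Mid1ip1 (0.89), Cd81 (0.85) and Commd9 (0.85). These correlations describe 12 points that share libraries and depth, and the microglial types are the highest points for Ctss, Npc2, Ctsb, Lgmn and Ctsd.

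With fluoxetine, 5 of the 8 genes were higher in dorDG when all cells of a replicate were summed: Ctsd, Lgmn, Npc2, Gm2a and Lamp1. This count has to be read against the many genes called in this comparison, 1221 of 4274 tested (28.6%), of which 532 were higher in FT (12.4%) and 689 lower (16.1%). A gene was called where the edgeR quasi-likelihood test gave a p of at most 0.2 after Benjamini-Hochberg adjustment over all genes tested and the log2 fold change was at least 0.32 in size. The median log2 fold change was 0.58 over the 8 genes and −0.04 over all genes tested. In such sums fewer cells of a type and less RNA per cell cannot be told apart.

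Among the proteases, Ctsd had 3.79, 2.33, 4.98 and 3.32 UMIs per 10000 in FT replicates 1, 2, 4 and 5 and 2.17, 2.57, 0.958, 2.48 and 2.68 in Sham replicates 1 to 5. FT replicate 2 lay inside the Sham range, and the other 3 lay above it. The log2 fold change was 0.80 (SE 0.33; edgeR adjusted p = 0.18). Lgmn had 3.29, 1.95, 3.78 and 2.60 in FT and 2.11, 1.64, 1.41, 2.05 and 2.41 in Sham, again with FT replicate 2 inside the Sham range (log2 fold change 0.69; edgeR adjusted p = 0.17). Ctsb, at 4.93 ± 1.03 in FT (n = 4) and 3.53 ± 1.14 in Sham (n = 5), had a log2 fold change of 0.55 that did not pass (edgeR adjusted p = 0.25). Ctss, at 19.4 ± 7.06 and 14.6 ± 3.20, had a log2 fold change of 0.48 (edgeR adjusted p = 0.32), also short of the threshold.

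Of the lipid-handling genes, Npc2 had 11.2, 5.44, 10.6 and 11.6 UMIs per 10000 in FT and 6.70, 8.19, 3.0, 5.24 and 7.49 in Sham, so 3 FT replicates stood above every Sham replicate (log2 fold change 0.73; edgeR adjusted p = 0.20). Gm2a had 0.873, 0.768, 0.756 and 0.771 in FT and 0.751, 0.518, 0.224, 0.477 and 0.722 in Sham, and the groups did not overlap, although the nearest values were 0.756 and 0.751 (log2 fold change 0.61; edgeR adjusted p = 0.20). Psap had 7.76 ± 1.0 in FT and 6.14 ± 1.93 in Sham, a log2 fold change of 0.42 that did not pass (edgeR adjusted p = 0.32). For the membrane protein, Lamp1 had 1.59, 1.74, 1.82 and 1.65 in FT and 1.06, 1.24, 0.734, 1.51 and 1.54 in Sham, without overlap (log2 fold change 0.56; edgeR adjusted p = 0.18). Groups in which every FT replicate was above every Sham replicate occurred in 176 of the 4274 genes (4.12%). Sham replicate 3 was the lowest Sham replicate for all 8 genes, and 72% of its cells were low-ribosomal. The count of 5 genes rested on single replicates: leaving out FT replicate 1, 4 or 5, or Sham replicate 1, 3 or 5, brought it to 0, leaving out FT replicate 2 or Sham replicate 4 to 3, and leaving out Sham replicate 2 to 7. When replicates were blocked by number it was 0 as well, and no gene of 4274 was called, although 2 of the 8 and 891 genes in all had an unadjusted p under 0.05. The 5 genes then had log2 fold changes of 0.42 to 0.56 and an edgeR adjusted p of 0.22 or more. It was also 0 when low genes were not filtered out and 6 by DESeq2 (20.4% of all genes higher), and each gene kept a log2 fold change above 0 whichever replicate was left out.

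**Figure D2:**
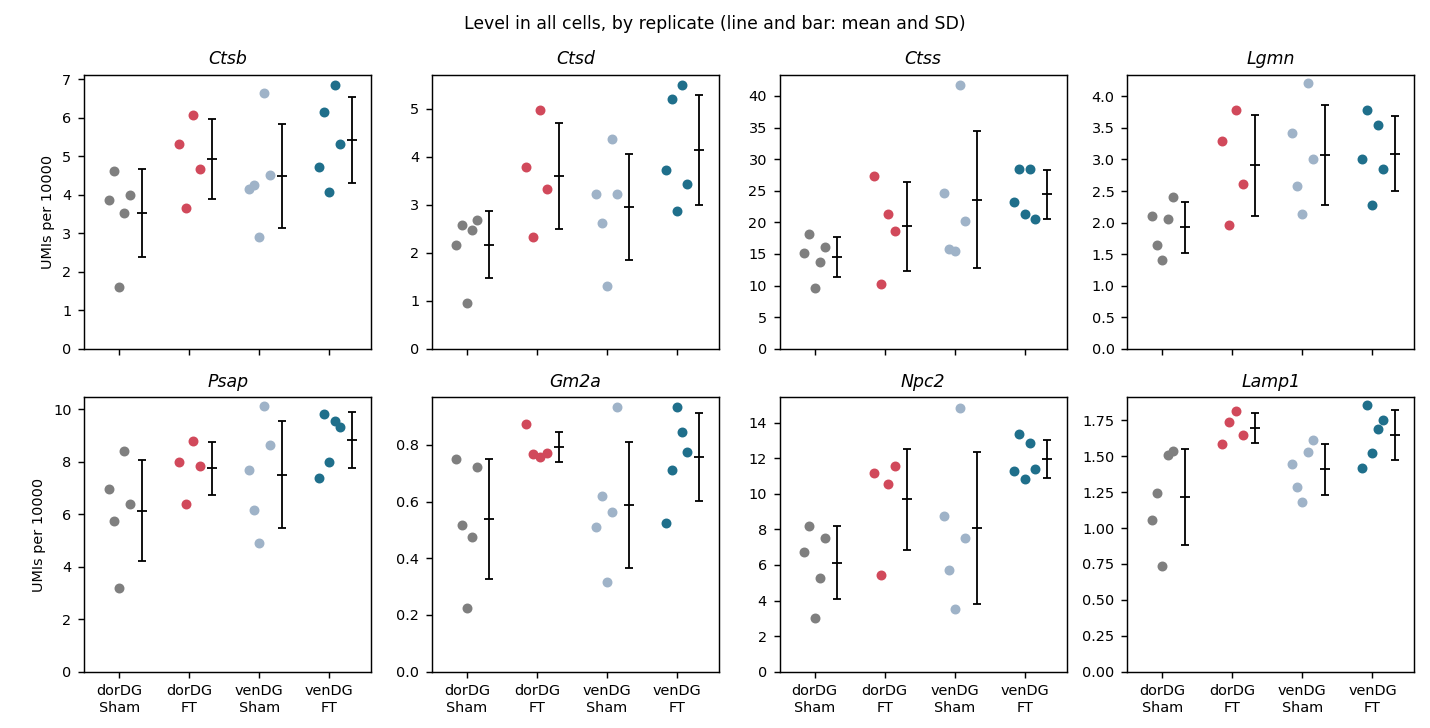
Level of each gene in all cells (vertical axis, UMIs per 10000) in every replicate of the 4 groups (horizontal axis, points), with the mean and SD beside them. FT replicates of dorDG lie above all Sham replicates for Gm2a and Lamp1, and the venDG groups overlap for every gene.

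The kind of cell moved with treatment in dorDG and with these calls. The low-ribosomal share averaged 23 ± 13% over the 4 FT replicates and 51.2 ± 14.7% over the 5 Sham replicates (SD). Levels were compared within the 10 types that had at least 10 cells of each kind. Low-ribosomal cells had less Ctsb, Ctsd and Psap than the other cells of their type in 10 types. They had less Npc2 in 9, less Lgmn, Gm2a and Lamp1 in 8 each and less Ctss in 7. The same count over all genes was not made. In the cells with at least 2% ribosomal UMIs, 0 of the 8 genes and 0 of 3800 genes in all were called by edgeR (0 and 84 had an unadjusted p under 0.05), and the median log2 fold change of the 8 was 0.15. There Ctsd had a log2 fold change of 0.23 (SE 0.22), Lamp1 of 0.30 (SE 0.17) and Npc2 of 0.13 (SE 0.25), while Ctss had −0.10 and Psap −0.05. In the low-ribosomal cells alone, 7 genes could be tested and 3 were higher, Ctsd with a log2 fold change of 1.93, Ctss with 1.73 and Lgmn with 1.55 (edgeR adjusted p = 0.17, 0.18 and 0.17), against 0.343% of all genes called higher. Ctsd in these cells was 1.27, 1.43, 1.67 and 2.70 UMIs per 10000 in FT and 0.622, 0.228, 0.262, 0.749 and 0.646 in Sham, without overlap. Lgmn and Psap did not overlap there either, and all FT replicates were above all Sham replicates for 0.639% of the 4379 genes tested. The low-ribosomal sums rested on 29, 83, 19 and 15 cells in FT and on 128, 71, 72, 43 and 52 in Sham. Microglial cells held 1.28%, 6.53%, 1.46% and 11.1% of the UMIs of the low-ribosomal cells in FT and 0.69%, 0.624%, 3.72%, 3.11% and 6.09% in Sham. The mix of types differed as well. The type labelled InhibNeuron, with a Ctsd level of 0.51, had 120 cells in Sham, 89.2% of them low-ribosomal, and 27 in FT, 37.0% of them low-ribosomal. The part of this mix in the 3 calls was not tested. In the first reactions alone, which left 2 replicates per group, the log2 fold change was below 0 for 7 of the 8 genes (median −0.17) and none was called by edgeR, with no unadjusted p under 0.05. In the second reactions alone it was above 0 for all 7 genes tested (median 0.84) and none was called (0.0663% of all genes were called higher), with an unadjusted p under 0.05 for Ctss and Lgmn.

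Markers of cell types moved as well. Microglial cells were 12.2% to 23.2% of cells in dorDG FT and 13% to 17% in Sham, and the 8 microglial markers in sum stood at 12.4 to 27.0 UMIs per 10000 in FT and 8.48 to 22.4 in Sham. Of the 8 microglial markers 5 were tested, none was called, and their median log2 fold change was 0.52. Of 6 astrocyte markers 3 were higher in FT (median 0.89), both mural markers tested were higher and all 4 granule cell markers tested were lower. Without microglial cells 4 of the 8 genes were higher, Ctsd (0.58), Lamp1 (0.55), Lgmn (0.60) and Npc2 (0.56), when 16.8% of all genes were called higher. The part of the other cell types and of the low-ribosomal cells in the all-cell calls was not tested beyond these subsets.

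In venDG 0 of the 8 genes and 0 of 4079 genes were called by edgeR, 0 of the 8 had an unadjusted p under 0.05 (236 of all genes did), and by DESeq2 0 of the 8 and 18 genes in all passed, 0.0735% of those tested being higher in FT. With at least 2% ribosomal UMIs 0 were called as well, and Npc2 had a log2 fold change of 0.46 there. Npc2 had 11.3, 13.4, 10.9, 12.9 and 11.4 UMIs per 10000 in FT replicates 1 to 5 and 8.75, 5.72, 3.50, 14.8 and 7.53 in Sham, with Sham replicate 4 above all FT replicates (log2 fold change 0.57, SE 0.30). Ctsd followed with 0.48 (SE 0.28), Gm2a with 0.37, Ctsb with 0.26, Psap with 0.23, Lamp1 with 0.22 and Ctss with 0.06, and the value for Lgmn was 0.00 (SE 0.22). The median of the 8 was 0.25 and that of all genes −0.01. The value for Ctss depended on the cells summed, and outside microglia it was −0.56 (edgeR unadjusted p = 0.031). Its level there was low in every named type, and the unnamed cells, counted there too, reached 9.22 UMIs per 10000 in a Sham replicate.

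**Figure D3:**
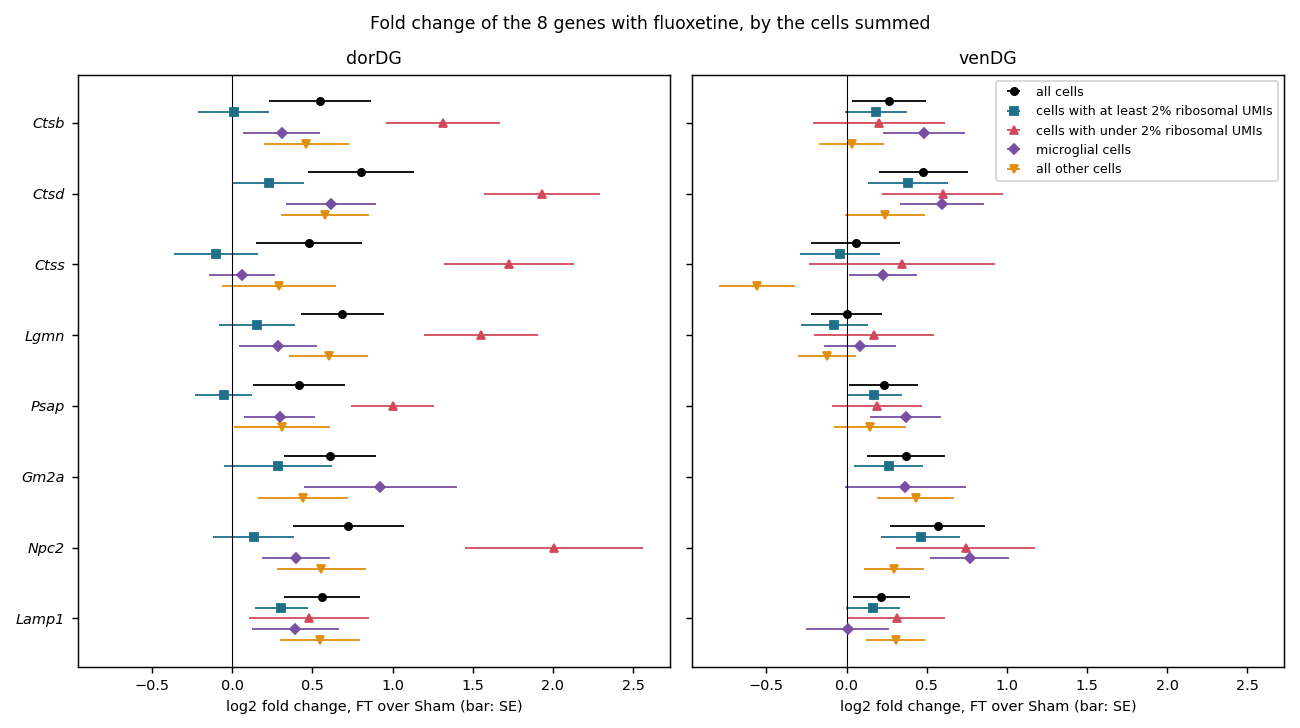
log2 fold change of FT over Sham (horizontal axis, bars are SE) for each gene in dorDG (left) and venDG (right), for sums over all cells, cells with at least or under 2% ribosomal UMIs, microglial cells, and all other cells. In dorDG the values for cells with at least 2% ribosomal UMIs lie between −0.10 and 0.30, and those for low-ribosomal cells reach 2.01 for Npc2, whose adjusted p was above the threshold. Gm2a was too low to be tested in low-ribosomal cells.

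Within microglial cells the 8 genes had log2 fold changes above 0 in both regions, and none passed the edgeR test across all genes, with an unadjusted p under 0.05 for 1 of the 8 in dorDG, where 114 of 2976 genes had one, and for 2 in venDG, where 154 of 2867 did. For Npc2, venDG microglial cells had 46.0, 52.6, 58.4, 52.2 and 54.9 UMIs per 10000 in FT and 39.8, 31.5, 19, 45.4 and 23.3 in Sham. The groups did not overlap, which was so in this direction for 0.732% of the genes tested (log2 fold change 0.77, SE 0.25; edgeR adjusted p = 0.85). In dorDG Npc2 had 41.8, 39.8, 44.2 and 52.3 in FT and 34.1, 30.6, 26.8, 39.1 and 35.6 in Sham, again without overlap (log2 fold change 0.40, SE 0.21; edgeR adjusted p = 0.995). Ctsd had a log2 fold change of 0.60 in venDG and 0.62 in dorDG, with edgeR unadjusted p of 0.035 and 0.044. Lamp1 in dorDG had 2.13, 2.77, 2.29 and 2.12 in FT and 1.70, 1.45, 1.53, 1.94 and 2.01 in Sham, without overlap, and in venDG its log2 fold change was 0.01. In dorDG microglial cells 1.08% of the genes tested had all FT replicates above all Sham replicates. The 2 dorDG subtypes are given apart, and a difference between them was not tested. In Microglia1, Npc2 had a log2 fold change of 0.20 (SE 0.21) and Lamp1 of −0.06 (SE 0.30), and the groups overlapped for both. In Microglia2 the values were 1.27 (SE 0.61) and 1.76 (SE 0.67), with an edgeR adjusted p of 0.97 for both. Lamp1 rested there on 1 to 4 UMIs per Sham replicate. Low-ribosomal cells were 3.13% to 33.3% of the dorDG microglial cells in FT and 4.76% to 58.8% in Sham, and up to 35.5% and 77.8% in venDG. In microglial cells with at least 2% ribosomal UMIs the log2 fold change of Npc2 in venDG was 0.68. In that subset 0 of 2767 genes in dorDG and 0 of 2721 in venDG were called higher.

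**Figure D4:**
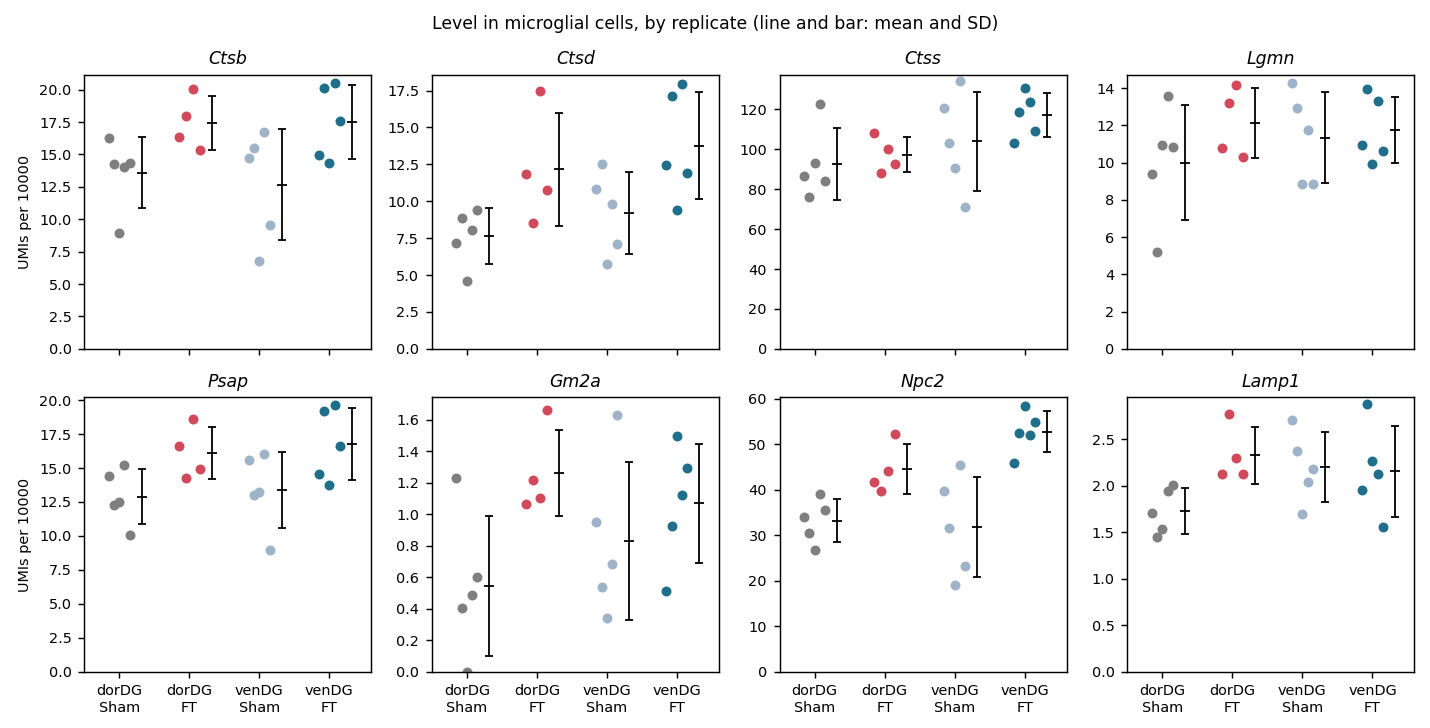
Level of each gene in microglial cells only (vertical axis, UMIs per 10000) in every replicate of the 4 groups (points), with the mean and SD. For Npc2 all FT replicates lie above all Sham replicates of the same region, and for Ctss the groups overlap in both regions.

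By cell type, none of the 8 genes was called by edgeR or DESeq2 in any of the 9 dorDG types that could be fitted, and 2 were called by edgeR in 1 of the 7 venDG types fitted. In dorDG an unadjusted edgeR p under 0.05 was seen for 3 genes in Microglia2 and for 1 each in Microglia1, Oligodend1 and the type labelled Mossy. The single genes were Ctsd in Microglia1 (log2 fold change 0.61), Ctsb in Oligodend1 (0.69) and Psap in the type labelled Mossy (−0.78, lower in FT). Over all genes tested in these types, 140 of 3441, 76 of 2797, 569 of 3693 and 143 of 3861 had such a p. In dorDG Microglia2, Gm2a had a log2 fold change of 2.35 (SE 0.80), Lamp1 of 1.76 (SE 0.67) and Npc2 of 1.27 (SE 0.61), with edgeR unadjusted p of 0.0033, 0.0085 and 0.037 and an adjusted p of 0.97 for each. Sham replicates 1 to 5 of this type held 2, 0, 0, 1 and 1 UMIs of Gm2a and 2, 2, 1, 2 and 4 of Lamp1. Gm2a averaged 0.354 UMIs per 10000 in Sham, below the filter of 0.5, and 1.62 in FT. It entered the test of this type only through FT, so its p is not read as a result. Only 2 of 3441 genes were called there (0.0581%), and low-ribosomal cells were 13.8% of Microglia2 in FT and 33.3% in Sham. In Oligodend1, where 227 of 3693 genes were called (6.15%), Ctsb came nearest with 0.69 (edgeR adjusted p = 0.29). The share of genes called was 0.0232% in AstroSub1 and 0.029% in Oligodend2, and no gene was called in the remaining dorDG types by edgeR. In venDG it was 0.101% in Mural-like cells, and no gene was called in 5 further types. Among these, OPC-like cells had a log2 fold change of −0.83 for Ctss (SE 0.40; edgeR unadjusted p = 0.0499, adjusted p = 0.99), which was not called. Ctss in these cells was at the low level that is not read as expression above.

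Gm2a and Lamp1 were higher in FT in venDG Astrocyte-like cells, where 426 of 4010 genes were called (10.6%), 221 of them higher (5.51%). Gm2a had 0.822, 1.59, 2.06, 1.08 and 1.37 UMIs per 10000 in FT replicates 1 to 5 and 0.454, 0.523, 0.932 and 0.691 in Sham replicates 1, 2, 4 and 5, resting on 1 to 6 UMIs per Sham replicate. FT replicate 1 lay inside the Sham range (log2 fold change 1.48, SE 0.60; edgeR adjusted p = 0.18). Lamp1 had 2.3, 4.54, 3.78, 6.47 and 5.33 in FT and 1.97, 1.57, 2.33 and 1.38 in Sham, also with FT replicate 1 inside the Sham range (log2 fold change 1.45, SE 0.49; edgeR adjusted p = 0.13). Low-ribosomal cells were 18.2% to 67.9% of these cells in FT and 40% to 88.9% in Sham, 3 of 6 astrocyte markers were also higher in FT and 3 of 6 oligodendrocyte markers tested were lower. Both calls were absent in the cells with at least 2% ribosomal UMIs, without the filter on low genes and by DESeq2, and when replicates were blocked by number Lamp1 alone was called. Leaving out FT replicate 2, 3 or 5, or Sham replicate 1 or 2, brought the count to 0, leaving out Sham replicate 5 to 1 and leaving out FT replicate 1 to 5.

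None of the 8 genes passed a test of whether the effect of fluoxetine differed between the regions. The interaction of region and treatment called 0 of 4161 genes by edgeR, 0 of the 8 genes and 394 genes in all had an unadjusted p under 0.05, and DESeq2 called 0 of the 8 and 8 genes in all. Among the 8 the largest difference was that of Lgmn, 0.65 higher in dorDG on the log2 scale (SE 0.32; edgeR unadjusted p = 0.054). All 8 values were above 0 in all cells (median 0.27), but 3 were in cells with at least 2% ribosomal UMIs (median −0.11), where 0 of 3747 genes were called by edgeR and 117 had an unadjusted p under 0.05. Blocking on the replicate number, along which the regions' deviations correlated, called 428 genes in all cells, with none of the 8 among them.

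Between regions under Sham, Lgmn was lower in dorDG, with 2.11, 1.64, 1.41, 2.05 and 2.41 UMIs per 10000 against 3.42, 2.58, 2.14, 4.21 and 3.01 in venDG, and dorDG was lower in every replicate number (log2 fold change −0.74, SE 0.22; edgeR adjusted p = 0.19). In this comparison 76 of 4161 genes were called (1.83%), 11 of them lower in dorDG (0.264%) and 65 higher (1.56%). Ctss had a log2 fold change of −0.73 (edgeR adjusted p = 0.35), and all 8 values were below 0. Microglial cells were 13% to 17% of dorDG Sham and 13.1% to 29.4% of venDG Sham replicates, and within microglial cells the value for Lgmn was −0.23 and it was not called, as in cells with at least 2% ribosomal UMIs (−0.42). The call was lost without dorDG Sham replicate 1, 3 or 5, without venDG Sham replicate 1, 4 or 5, and also without dorDG FT replicate 1 or 5 or venDG FT replicate 1, 2, 4 or 5, which enter the shared estimate of the spread. Under FT 0 of the 8 and 0 of 4161 genes were called by edgeR, none of the 8 fell under 0.05 before adjustment, and by DESeq2 2 genes passed, none of the 8. Blocking on the replicate number raised the count to 503 genes under Sham, with 1 of the 8 among them, and to 2 genes under FT, with none of the 8.

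The first and second reactions of the 8 replicates that had both differed in all 8 genes. Each was higher in the first, in a comparison that called 3685 of 4378 genes (84.2%), of which 1749 were higher (39.9%). Npc2 had 11.7 ± 3.44 UMIs per 10000 in the first and 2.00 ± 2.26 in the second reactions, Ctsb 6.09 ± 0.84 and 1.13 ± 1.0, and Ctss 26.3 ± 8.37 and 7.32 ± 10.4 (SD, n = 8). Their log2 fold changes were 3.49, 3.16 and 3.30, with edgeR adjusted p of 1.1e-05, 8.5e-07 and 0.0003. Values for the other genes were 2.25 for Ctsd, 1.95 for Psap, 1.85 for Lgmn, 1.48 for Lamp1 and 1.45 for Gm2a. Every first reaction was above every second reaction for Ctsb, Psap and Lamp1, and for 20.1% of all genes tested. All 8 replicates had the higher level in the first reaction for 5 genes, with 7 for Ctss and Gm2a and 6 for Lgmn. The second reaction of venDG FT replicate 2 stood apart, with 31.5 Ctss UMIs per 10000 against 27.4 in its first and at most 11.3 in any other second reaction. Microglial cells were 13.7% to 32.8% of the first and at most 11.9% of the second reactions. Without microglial cells all 8 genes were still higher, from 0.89 for Lgmn and 0.99 for Ctss to 2.01 for Npc2 and 2.57 for Ctsb, when 38.9% of genes were called higher.

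**Figure D5:**
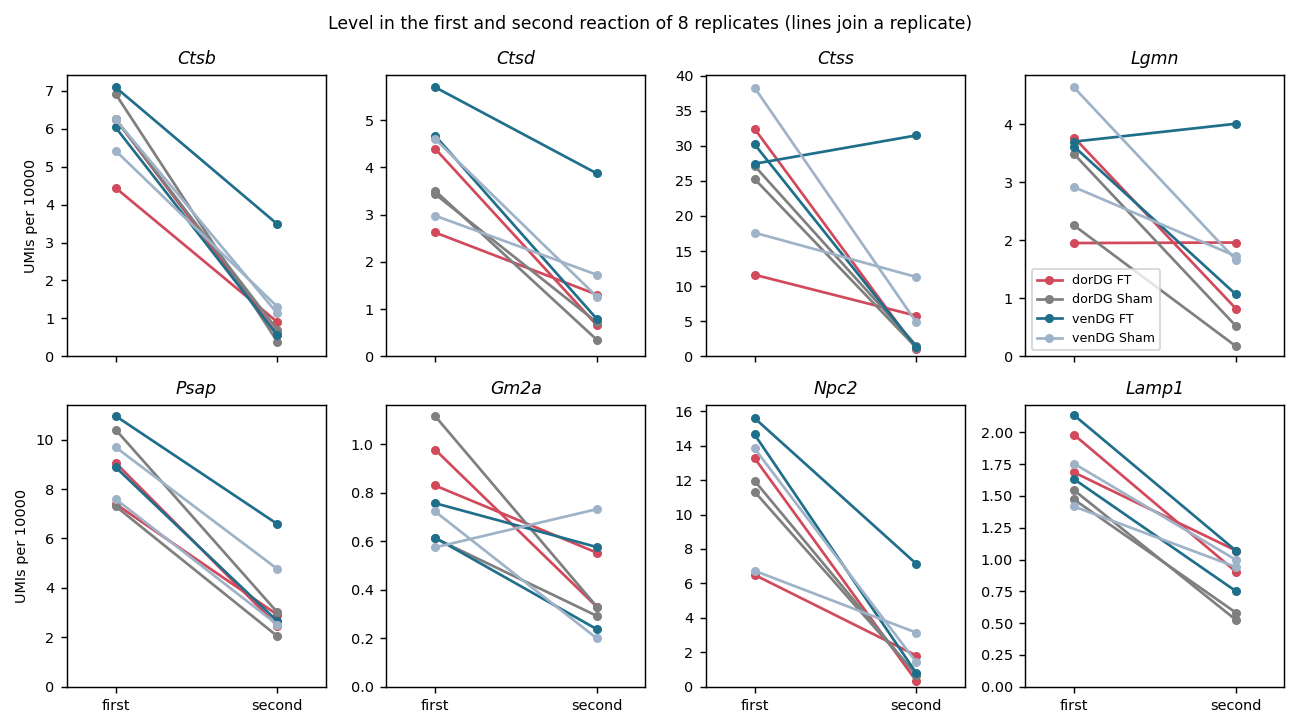
Level of each gene (vertical axis, UMIs per 10000) in the first and second reaction (horizontal axis) of the 8 replicates that had both, with a line joining each replicate. Ctsb, Psap and Lamp1 fall in every replicate and do not overlap, and the Ctss line of a venDG FT replicate rises from 27.4 to 31.5.

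Other lysosomal genes were followed through a list of 81 genes found in the tables. In dorDG 46 were tested in all cells, of which 5 were higher in FT and 1 lower, when 12.4% of all genes were higher and 16.1% lower, and their median log2 fold change was 0.37. The proteases Ctsz (0.81), which encodes cathepsin Z, and Ppt1 (0.66), a palmitoyl-protein thioesterase listed with them, were higher (edgeR adjusted p = 0.19 and 0.17). Of 16 subunits of the V-ATPase, the proton pump that acidifies the lysosome, 1 was higher, Atp6v1g1 (0.62), and of 8 lipid and glycan hydrolases none passed. Mtor, the kinase that restrains TFEB at the lysosome, was lower (−0.56; edgeR adjusted p = 0.19). In cells with at least 2% ribosomal UMIs, 43 of the list were tested, none passed and the median was −0.02. In venDG 46 were tested, none passed and the median was 0.17. In venDG Astrocyte-like cells 44 were tested and 4 called, 3 of them higher, against 10.6% of all genes called and 5.51% higher. Tpp1 (2.03), Ctsa (1.61) and Laptm4a (1.38) were the 3 that were higher, and Manba (−1.61) was lower. Between the regions none of 48 passed under Sham (median −0.25). The reactions differed for 37 of 45 genes, in a comparison that called 84.2% of all genes. Of the 37, 32 were higher in the first (39.9% of all genes were), led by Cd63 (3.77) and the cathepsin inhibitors Cst3 (3.56) and Cstb (2.99), and 5 lower, with Mtor (−1.38), Igf2r (−0.86) and Scarb2 (−0.79) at that end.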

How the data were processed

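Single-cell UMI counts from dorDG and venDG were analysed in 19 replicates, given by the labels as 108 libraries from 27 reactions with 4 libraries each. The authors made the deposited counts per gene and cell with Cell Ranger 2.1.0 from 10x 3′ v2 libraries, filtered the cells and, for dorDG, named the types in Seurat. The submitters' processing notes name Seurat 3 and the build rn5, and the annotation is not given in the sources used here. Whether reads were counted in introns or only in exons bears on nuclei and is likewise not given. Log-normalized venDG values were not used here.

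From 3517 deposited cells, 170 venDG columns with a second suffix were left out, because 167 of them repeated a barcode of the same reaction. No doublet caller was run. The venDG cells were clustered with scanpy 1.11.5 (2000 variable genes, 30 components, 15 neighbours, Leiden resolution 2) and named from at least 3 markers, with a margin of at least 2 over the next type. Under a smaller margin, clusters of 99 and 57 cells would have been named Granule-like and Excitatory-like. Counts were summed per replicate, or per replicate and type with at least 5 cells, and at least 3 sums per group were needed. A gene entered a test when its level averaged 0.5 UMIs per 10000 or more over the sums, and tests used edgeR 4.0.16 (TMM, quasi-likelihood F-test) in R 4.3.3, with Benjamini-Hochberg adjustment over all genes tested, and the scripts were tested on simulated data. Totals ran from 220162 to 1523537 UMIs per replicate, so a gene at 0.5 UMIs per 10000 rests on few counts in the shallowest. Replicates are tissue pools, and the 36 pairs of replicates within groups differed by 2.97 to 17.1 in chi-square per degree of freedom, beyond counting error.

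FT was compared with Sham within each region and type, the regions within each treatment, and the first with the second reaction of a replicate, the order being that of their names, with replicate as a block. Region comparisons and the interaction used all 19 replicates in 1 fit. Deviations from group means correlated between dorDG and venDG replicates of the same number (r = 0.10 to 0.37 in FT and 0.21 to 0.57 in Sham). These values alone do not show that the regions are paired, and the labels do not say that a number marks the same animals. Counts with the replicate block are therefore given beside those of the main fit. Alternatives were DESeq2 1.42.0, limma 3.58.1 on log2(UMIs per 10000 + 0.01), no filter, library size without TMM, an adjusted p of 0.05, a replicate block, sums of at least 1 cell, subsets by ribosomal share and reaction (2 replicates per group), the second-suffix cells kept, and each replicate left out. The subsets of microglial and other cells were added after seeing the data, and the margin for naming venDG clusters was chosen after seeing the clusters. The 8 genes, the lysosome list of 87 genes (81 found) and the marker lists were chosen with earlier results of these data known. All 8 genes are always named, and from the lysosome list up to 3 called genes at each end of a comparison.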

Additional observations from a re-analysis of the deposited data

Results flagged for a closer look

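In all cells of dorDG FT, Gm2a in replicate 1 had a level of 0.873 UMIs per 10000. It was flagged against the other 3 replicates, which lay close together between 0.756 and 0.771, and the gap itself was small. Npc2 in replicate 2 of the same group, at 5.44 UMIs per 10000, stood far below the other 3, which lay between 10.6 and 11.6, and replicate 2 had the most low-ribosomal cells of the group (42.1%) and the fewest microglial cells (12.2%). These were 2 of 64 sets of replicates examined by Dixon's test at the 95% level, and chance alone marks about 1 in 20. Their part in the differences with fluoxetine is given by leaving each replicate out.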

How the results depend on the processing

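In dorDG all cells, the 5 called genes became 3 by library size without TMM and 3 in low-ribosomal cells, and 0 without the low filter, at an adjusted p of 0.05, in cells with at least 2% ribosomal UMIs, in the first or the second reactions, and in microglial cells with or without that limit. Leaving out a replicate gave 0 to 7. In venDG Astrocyte-like cells the count of 2 became 1 by library size or with the second-suffix cells kept, and 0 by DESeq2, without the filter, at 0.05 and with at least 2% ribosomal UMIs, and leaving out a replicate gave 0 to 5. For the regions under Sham the count of 1 became 3 in low-ribosomal cells and 0 without the filter, by library size, at 0.05, with at least 2% ribosomal UMIs, with second-suffix cells kept, and in or without microglial cells, and leaving out a replicate gave 0 to 2. In Oligodend1 it gave 0 to 1. The cause was not tested.

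With the replicate block, the dorDG count was 0 and the Astrocyte-like count 1. FT and Sham replicates of the same number correlated at −0.22 to 0.37 in dorDG and −0.16 to 0.27 in venDG, and the labels do not tie a number to a shared animal, day or batch. The study's methods describe parallel handling of Sham and FT for its frozen tissue, not for the fresh tissue used here, so whether the numbers pair the treatments is not known. The block changed no other count of the 8 genes, and the reactions gave 8 with or without it and under every other alternative, although library size without TMM moved the median of all genes from −0.13 to −0.60.

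In the first reactions of dorDG the log2 fold change was below 0 for Ctsb (−0.42), Ctsd (−0.10), Ctss (−0.36), Lgmn (−0.12), Psap (−0.22), Gm2a (−0.066) and Npc2 (−0.35). With at least 2% ribosomal UMIs it was −0.10 for Ctss and −0.053 for Psap in all dorDG cells, −0.048 for Ctss in dorDG microglial cells, −0.040 for Ctss and −0.076 for Lgmn in venDG, and −0.023 for Lamp1 in venDG microglial cells. In venDG, Ctss was −0.0056 in the first reactions, −0.56 without microglial cells and −0.055 to 0.35 on leaving out a replicate. Lgmn in venDG was −0.011 by DESeq2, −0.0038 by library size, −0.10 in the first reactions, −0.12 without microglial cells and −0.12 to 0.13 on leaving out a replicate. Of the other log2 fold changes under alternatives other than leaving out a replicate, 207 kept direction and side of the threshold, 58 lost it and 2 gained it.

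Gm2a rests on 415 UMIs in dorDG and 589 in venDG, so counting error alone limits it in single types. The types labelled InhibNeuron, ExcitNeuron and BergGlia and the venDG Excitatory-like and Inhibitory-like cells had too few replicates for a fit.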
